A study of Mus musculus with 31 samples.

Results

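Astrocytes take up the glutamate that neurons release, convert it to glutamine and hold the water and potassium balance of brain tissue. The 10 genes described here mark that cell type or carry out that uptake: Gfap, Aqp4, Aldh1l1, Slc1a2, Slc1a3, Gja1, Glul, S100b, Aldoc and Sox9. They were chosen by name, by gene symbol in the count table, as textbook genes of astrocytes, and the rule uses no measured value. Earlier results of these data were known when the choice was made. The table held 48795 genes, and 19529 of them had enough reads to be tested. Each of the 10 was among those tested.

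The libraries were made from total RNA of mouse brain, from aliquots of homogenised hemibrains, in a study of developmental exposure to the insecticide deltamethrin, which belongs to the pyrethroids and keeps neuronal sodium channels open. There were 13 control and 18 deltamethrin libraries, which the labels separate by agent alone. Dose, day of exposure, age, sex, strain, litter and extraction batch were not given in the labels. The labels do not say that each library came from a separate animal, so the p-values below measure the spread between these libraries, which may be technical.

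A pair of transporters in the astrocyte membrane clears most extracellular glutamate, GLT-1 (the product of Slc1a2) and GLAST (Slc1a3), and glutamine synthetase (Glul) turns it into glutamine for return to neurons. Aquaporin-4 (Aqp4) is the water channel of astrocyte endfeet, and connexin 43 (Gja1) forms the gap junctions that join astrocytes. Gfap encodes the astrocyte intermediate filament, Aldh1l1 a folate enzyme, S100b a calcium-binding protein and Aldoc the brain aldolase, while Sox9 is a transcription factor of the lineage. S100b and Glul are also made by oligodendrocytes.

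Library totals ran from 17570311 to 35716869 counts in the control group and from 24563143 to 38680621 in the deltamethrin group. At these depths the smallest member count was 122 (Sox9) and the largest was 134535 (Slc1a2). Counting error alone at the mean count was 0.444% for Slc1a2 and 4.0% for Sox9, so the spread described below is far larger than counting noise. Several libraries stood apart. The share of counts from mt-Rnr1 and mt-Rnr2, the ribosomal RNAs of mitochondria, had a median of 12.9% in controls and 14.8% in deltamethrin libraries, but reached 40.2% in control replicate 2 (95% Wilson interval 40.2 to 40.3). That library also had the lowest total. Deltamethrin replicates 1, 2 and 3, whose titles carry the lowest sample numbers, held the highest values of several members, as described below.

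**Figure D1:**
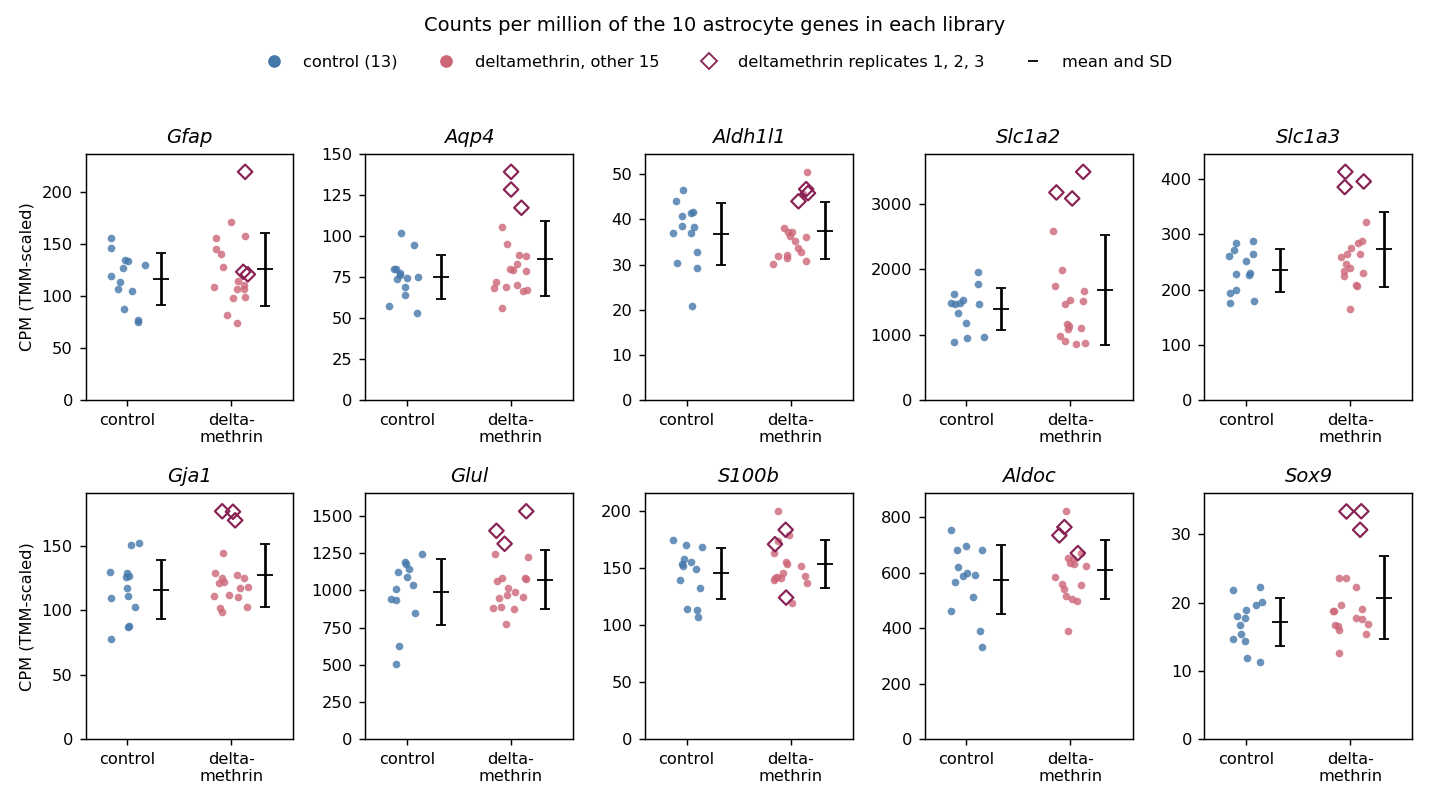
CPM (read counts scaled to library size) of each of the 10 genes in the 13 control and 18 deltamethrin libraries, one point per library, with the group mean and SD. The groups overlap for each gene, and deltamethrin replicates 1, 2 and 3 lie at the top for Slc1a2 (3079 to 3486), Slc1a3, Gja1, Glul, Aqp4 and Sox9.

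Levels are given as CPM, read counts scaled to library size by TMM, which also corrects for differences in library composition. Per kilobase of exon, and over all 31 libraries, the order began with Glul at 312 ± 63.0 CPM per kb (SD, n = 31), followed by Aldoc at 183 ± 34.5 and Slc1a2 at 119 ± 52.1. The enzymes of glutamine synthesis and glycolysis thus stood above the main glutamate transporter on this scale. The scale divides by the joined exons of all annotated transcripts, 13133 bases for Slc1a2, 3323 for Glul and 3263 for Aldoc. In CPM the order was reversed, with control means of 1390 for Slc1a2, 989.7 for Glul and 574.9 for Aldoc. Per kilobase, S100b followed at 101 ± 14.6 CPM per kb, then Slc1a3 at 30.1 ± 7.0 and Gfap at 28.8 ± 7.40. Aqp4 (13.1 ± 3.20), Gja1 (11.9 ± 2.34), Aldh1l1 (8.24 ± 1.43) and the transcription factor Sox9 (4.65 ± 1.30) were the lowest on the same scale. Slc1a2 was above S100b in 17 of 31 libraries and Slc1a3 above Gfap in 19 of 31, so neither order held beyond the spread. Aqp4 was above Gja1 in 25 libraries and Aldoc above Slc1a2 in 27. For the other neighbours the order held in 30 or 31 of 31.

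**Figure D2:**
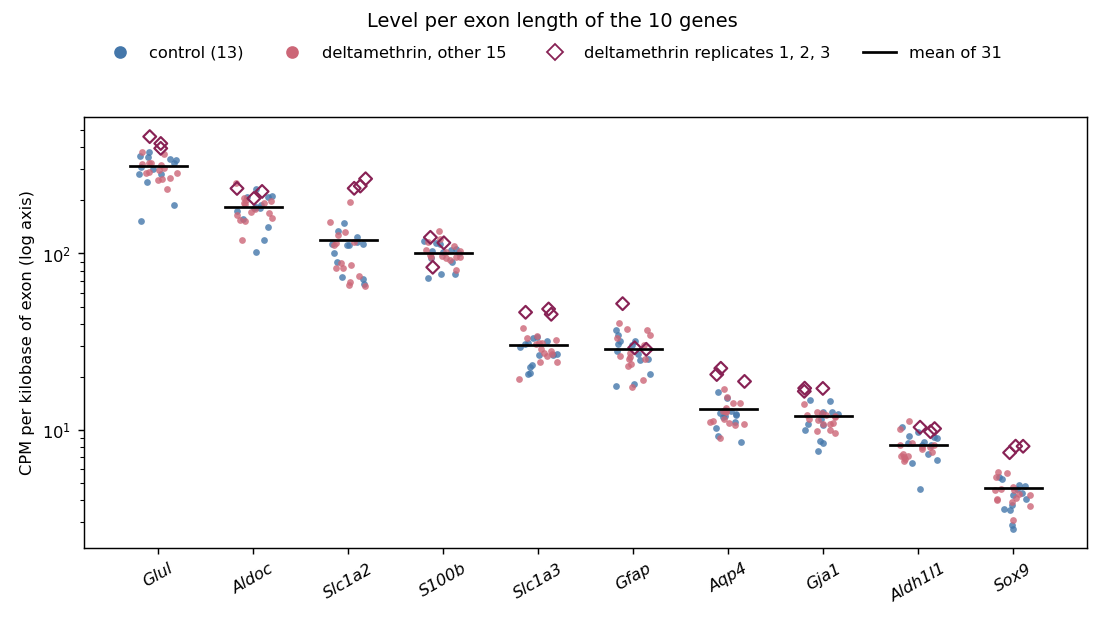
Level of each gene per kilobase of union exon length (CPM per kb, log axis) in each of the 31 libraries, ordered by mean. Glul is highest at a mean of 312 CPM per kb and Sox9 lowest at 4.65, with Slc1a2 and S100b overlapping.

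No member differed between the groups at an adjusted p under 0.05 in edgeR's quasi-likelihood test, and no gene of the 19529 did (0%), the smallest adjusted p over all genes being 0.441. At an unadjusted p under 0.05 the count was 1 of 10 members (Sox9), beside 4.37% of all genes tested. Sox9 was on the higher side, where 2.0% of all genes lay, and 0 of 10 members were on the lower side, where 2.37% lay. DESeq2 also gave 0 members after adjustment and 1 before it, and limma voom gave 0 and 0. The fitted log2 difference (deltamethrin over control) was above 0 for 10 of 10 members, against 50.5% of all genes. These signs are not independent of each other, because most members varied together across the libraries, as described below. The members' median was 0.12, and the median of all genes was 0.00. In bulk tissue, more astrocytes and more RNA per astrocyte cannot be told apart.

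The size of the estimates moved with 3 libraries more than their sign. Deltamethrin replicates 1, 2 and 3 were singled out after the data were seen, as holding the highest values of several members, so leaving them out had to lower those estimates. Without them 8 of 10 members had an estimate above 0 beside 47.3% of all genes. None of the 10 then reached an unadjusted p under 0.05 in edgeR, beside 1.67% of all genes, and each member lay between -0.03 and 0.10 on the log2 scale. In these 3 libraries the summed CPM of 8 neuron markers was 4934, 4789 and 4798, the highest of all 31 (next 4445, in deltamethrin replicate 7). By the mean log2 CPM of the same markers only replicates 1 (8.78) and 2 (8.74) were highest. Replicate 3 (8.66) was then below deltamethrin replicate 11 (8.72) and control replicate 4 (8.69). The mitochondrial rRNA shares of deltamethrin replicates 1, 2 and 3 were 7.61%, 8.63% and 11.2%. These were low but shared with other libraries, such as deltamethrin replicate 11 at 7.32% and control replicate 5 at 8.49%. The summed CPM of 5 blood genes in replicates 1, 2 and 3 was 380.5, 485.2 and 465.9, and deltamethrin replicates 11 (421.9), 13 (448.7) and 15 (399.0) were as low. The part of these library differences in the members' values was not tested.

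**Figure D3:**
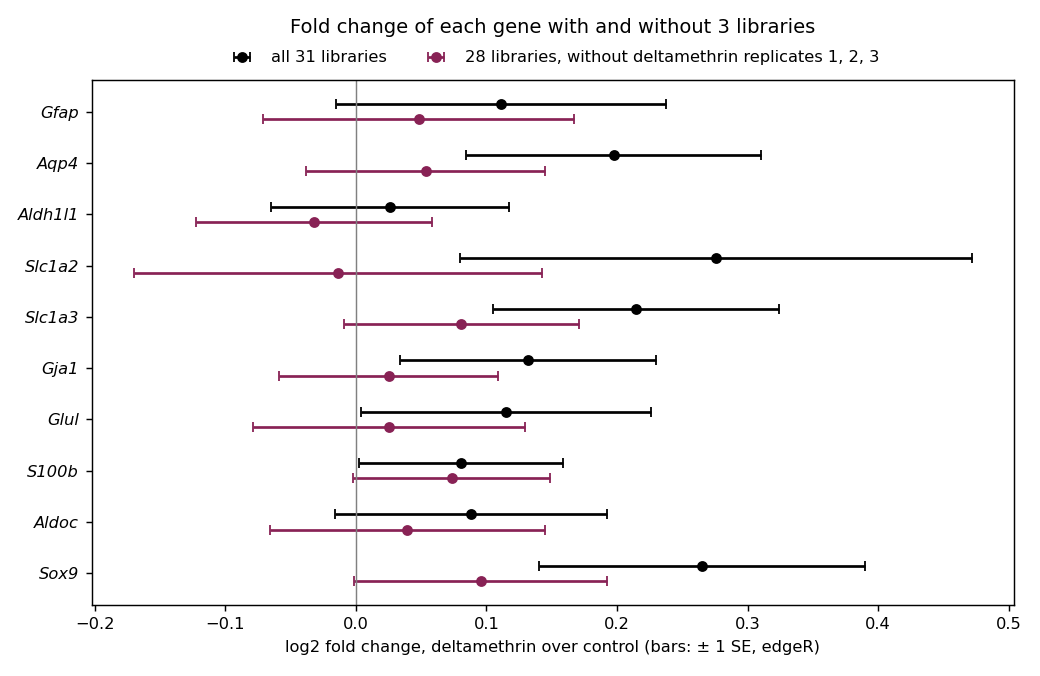
Fitted log2 difference (deltamethrin over control) of each gene with bars of 1 SE on either side, from all 31 libraries and with deltamethrin replicates 1, 2 and 3 left out. With all libraries the 10 estimates lie between 0.03 and 0.28, and without those 3 they lie between -0.03 and 0.10.

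Slc1a2, the main glutamate transporter (ENSMUSG00000005089, chr2:102658659-102790784, + strand, GRCm38), ranged in controls from 878.9 to 1955 CPM with a median of 1465. The deltamethrin libraries ran from 855.0 to 3486 CPM with a median of 1491, so the medians nearly coincided while the upper end was extended. Replicates 1, 2 and 3 stood at 3079, 3171 and 3486 CPM, and the highest of the other 28 libraries was 2583 CPM. Slc1a2 was the most variable member. Its coefficient of variation was 23.3% in controls and 50.3% in deltamethrin libraries, and its edgeR biological coefficient of variation of 36.7% was above that of 91.7% of all genes. The fitted log2 difference was 0.28 (SE 0.20, 95% interval -0.12 to 0.67, edgeR adjusted p = 0.813). Without replicates 1, 2 and 3 the estimate changed sign, to -0.01. An antisense gene, Gm13872, covers 1.44% of the Slc1a2 exon length.

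Slc1a3, the partner transporter (ENSMUSG00000005360, chr15:8634124-8710764, - strand), ran from 176.2 to 288.2 CPM in controls (median 231.0) and from 165.7 to 413.5 in deltamethrin libraries (median 261.9). Of the 18 deltamethrin libraries 13 were above the control median and 5 above the highest control, with 1 below the lowest control, so the groups overlapped widely. Its log2 difference was 0.21 (SE 0.11, interval -0.01 to 0.44, edgeR unadjusted p = 0.0582, adjusted p = 0.813). Replicates 1, 2 and 3 had 396.0, 385.9 and 413.5 CPM, against a highest value of 322.6 among the others, and without them the difference was 0.08.

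Glul, glutamine synthetase (ENSMUSG00000026473, chr1:153899944-153909723, + strand), ran from 504.9 to 1245 CPM in controls (median 1034) and from 774.3 to 1530 in deltamethrin libraries (median 1037). Its control minimum was the library with the 40.2% mitochondrial share. The log2 difference was 0.11 (SE 0.11, interval -0.11 to 0.34, edgeR adjusted p = 0.833), and 0.03 without deltamethrin replicates 1, 2 and 3. It was 0.05 without control replicate 2 and 0.07 without control replicate 7. Exons of Teddm2, on the opposite strand, cover 3.49% of the Glul exon length, and the microRNA gene Mir8114 covers 2.80%. Whether the counts used strand is not given in the sources used here.

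Sox9, the lineage transcription factor (ENSMUSG00000000567, chr11:112782224-112787760, + strand), was the one member with an unadjusted p under 0.05. It ran from 11.3 to 22.3 CPM in controls (median 17.7) and from 12.7 to 33.4 in deltamethrin libraries (median 18.8). The 3 highest values, 33.4, 33.3 and 30.7 CPM, were those of deltamethrin replicates 1, 2 and 3, and the next was 23.7. The log2 difference was 0.27 (SE 0.12, interval 0.01 to 0.52, edgeR unadjusted p = 0.0406, adjusted p = 0.813). Without those 3 libraries it was 0.10 with an edgeR unadjusted p of 0.331. Leaving out control replicate 2, where Sox9 was lowest, gave 0.23 with an unadjusted p of 0.0776.

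Gfap, the intermediate filament often used as a sign of astrocyte reactivity (ENSMUSG00000020932, chr11:102887336-102900912, - strand), ran from 74.6 to 155.2 CPM in controls (median 118.6) and from 74.0 to 219.0 in deltamethrin libraries (median 117.5). Deltamethrin replicate 2 held the maximum, while replicates 1 and 3 were mid-range at 120.6 and 123.0 CPM, unlike their places for Slc1a2. Its log2 difference of 0.11 had an SE of 0.13 (interval -0.15 to 0.37, edgeR adjusted p = 0.850), and it was 0.05 without deltamethrin replicate 2, 0.07 without control replicate 1 and 0.07 without control replicate 2. The values of 9 deltamethrin libraries exceeded the control median.

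Aldoc, the brain aldolase (ENSMUSG00000017390, chr11:78322968-78327781, + strand), ran from 331.8 to 753.2 CPM in controls and from 389.5 to 820.7 in deltamethrin libraries, with medians of 590.8 and 627.0. S100b, the calcium-binding protein gene (ENSMUSG00000033208, chr10:76253853-76261159, + strand), ran from 107.1 to 174.7 CPM (median 152.0) and from 119.4 to 199.5 (median 148.5). S100b was the steadiest member, with a highest to lowest ratio of 1.86 over the 31 libraries, where Slc1a2 had 4.08. Deltamethrin replicate 1 was among its lowest values at 124.0 CPM. Aldh1l1, the folate enzyme (ENSMUSG00000030088, chr6:90486427-90600203, + strand), ran from 20.9 to 46.5 CPM (median 38.2) and from 30.1 to 50.6 (median 36.2). The log2 differences of Aldoc, S100b and Aldh1l1 were 0.09 (SE 0.10), 0.08 (SE 0.08) and 0.03 (SE 0.09), with edgeR adjusted p of 0.855, 0.834 and 0.949. The antisense gene Gm15756 covers 11% of the Aldh1l1 exon length, and the long noncoding RNA gene Gm45901, on the same strand, covers 2.33%. Without control replicate 2 the Aldoc difference was 0.04 and that of Aldh1l1 was -0.02, without control replicate 7 that of Aldoc was 0.05 and that of S100b 0.05, and without control replicate 9 that of Aldoc was 0.13. The Aldh1l1 estimate, close to 0, ran up to 0.07 (without control replicate 9) as single libraries were left out.

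Aqp4, the endfoot water channel (ENSMUSG00000024411, chr18:15389496-15410982, - strand), ran from 53.0 to 101.7 CPM in controls (median 75.1) and from 55.8 to 139.1 in deltamethrin libraries (median 79.4). Its log2 difference was 0.20 (SE 0.11, interval -0.03 to 0.43, edgeR unadjusted p = 0.0889, adjusted p = 0.813). Gja1, connexin 43 (ENSMUSG00000050953, chr10:56377330-56402513, + strand), ran from 77.9 to 152.0 CPM (median 117.4) and from 98.5 to 176.5 (median 121.5). Its log2 difference was 0.13 (SE 0.10, interval -0.07 to 0.33, edgeR adjusted p = 0.813). Deltamethrin replicates 1, 2 and 3 again held the 3 highest values of both genes: 117.2, 139.1 and 128.3 CPM for Aqp4 and 169.5, 176.5 and 176.1 for Gja1. The next highest libraries had 105.7 and 152.0 CPM. Without those 3 libraries the differences were 0.05 for Aqp4 and 0.03 for Gja1.

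Ratios of counts of 2 members within a library do not depend on scaling. The log2 ratio of Slc1a2 to Slc1a3 was 2.54 ± 0.22 in controls (SD, n = 13) and 2.51 ± 0.36 in deltamethrin libraries (SD, n = 18). In deltamethrin replicates 1, 2 and 3 it was 2.96, 3.04 and 3.08, above the control maximum of 2.95, so the high Slc1a2 values there were not matched in proportion by Slc1a3. This was not particular to these 3 libraries. Deltamethrin replicate 7, with 77710 counts of Slc1a2 and 9708 of Slc1a3, was also above the control maximum. The ratio of Glul to Slc1a2 was -0.49 ± 0.36 in controls and -0.52 ± 0.52 in deltamethrin libraries, with -1.23, -1.18 and -1.19 in those 3, inside the control range of -1.25 to 0.09. Gfap to Aldh1l1 was 1.65 ± 0.21 in controls and 1.71 ± 0.35 in deltamethrin libraries, and Aqp4 to Gja1 was -0.62 ± 0.23 and -0.58 ± 0.15. The group means of each of these ratios differed by less than the SD within a group.

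Across the 31 libraries most members varied together. Of 45 pairs, 34 had a Pearson r of log2 CPM with an adjusted permutation p under 0.05 (adjusted over the 45 pairs), each of them positive, and the median r was 0.64. Without deltamethrin replicates 1, 2 and 3 the count was 29, with 28 positive and 1 negative, and the median r was 0.57. None of the 9 pairs with S100b was among the 34, and of the other 36 pairs 34 passed. Pairs of other tested genes were not put through this test, so such joint variation is not shown to be particular to the members. The tightest pairs were Glul with Aldoc (r = 0.901, rho = 0.878) and Slc1a2 with Slc1a3 (r = 0.895, rho = 0.852), both with a permutation p of 1e-05, the smallest that the permutations could give, and an adjusted p of 2.37e-05. With the 2 libraries farthest from the median left out, r was 0.826 and 0.845. Within the control group it was 0.927 and 0.801, and within the deltamethrin group 0.860 and 0.938. Next came Gja1 with Sox9 (r = 0.888, rho = 0.804), Slc1a3 with Sox9 (r = 0.887, rho = 0.851), Slc1a3 with Gja1 (r = 0.884, rho = 0.819), Aldh1l1 with Aldoc (r = 0.865, rho = 0.838) and Aldh1l1 with Glul (r = 0.854, rho = 0.825). The closest partner of Aqp4 was Slc1a3 (r = 0.839, rho = 0.812). Each of these had the same adjusted permutation p. Gfap was most like Aldoc (r = 0.670, rho = 0.602, adjusted permutation p = 8.57e-05). S100b reached no more than 0.364 (with Aldoc, rho = 0.375, adjusted permutation p = 0.0564) and had r = -0.192 with Slc1a2 (rho = -0.154, adjusted permutation p = 0.329). That last relation was -0.485 without the 2 farthest libraries (adjusted permutation p = 0.0132), -0.443 without deltamethrin replicates 1, 2 and 3 (adjusted permutation p = 0.0285) and 0.219 with no scaling factors. All members share each library's depth and scaling factor, and without scaling factors 44 of the 45 pairs passed, 8 of the 9 with S100b among them.

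**Figure D4:**
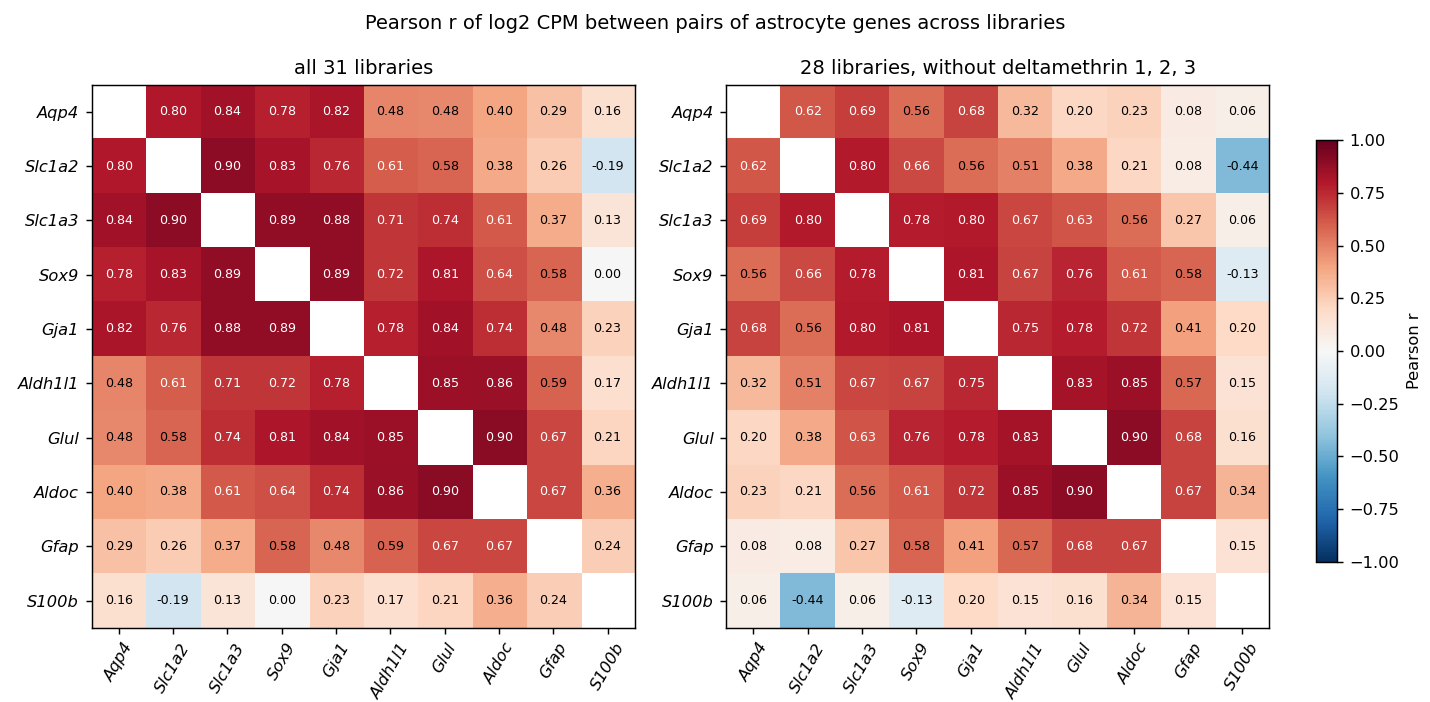
Pearson r of log2 CPM for each pair of the 10 genes, as a colour from negative to positive. The left panel covers the 31 libraries, and the right panel the 28 without deltamethrin replicates 1, 2 and 3. On the left, Glul and Aldoc form the tightest pair (0.901). The row of S100b is palest there, with r from -0.192 (Slc1a2) to 0.364 (Aldoc) after TMM scaling. On the right, r of S100b with Slc1a2 is -0.443.

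The sequences before the start sites of the 4 genes in the tightest pairs are shown so that the genes that varied together can be compared base by base. They come from RefSeq (GRCm38.p6), read on the strand of the gene, 5′ to 3′. Capitals mark ACAAT, the core letters bound by SOX factors, and TTGGC, one arm of the NFI site, on either strand. The Slc1a2 window lies inside the gene, before an internal RefSeq start, and the Aldoc window stops at the first annotated base of the gene.
Slc1a2 (chr2:102706188-102706437, + strand): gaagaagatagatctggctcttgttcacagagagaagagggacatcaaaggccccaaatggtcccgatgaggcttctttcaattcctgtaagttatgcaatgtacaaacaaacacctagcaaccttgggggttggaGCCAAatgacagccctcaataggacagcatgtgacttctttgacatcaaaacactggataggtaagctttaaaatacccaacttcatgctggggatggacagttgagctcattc
Slc1a3 (chr15:8710808-8711057, - strand): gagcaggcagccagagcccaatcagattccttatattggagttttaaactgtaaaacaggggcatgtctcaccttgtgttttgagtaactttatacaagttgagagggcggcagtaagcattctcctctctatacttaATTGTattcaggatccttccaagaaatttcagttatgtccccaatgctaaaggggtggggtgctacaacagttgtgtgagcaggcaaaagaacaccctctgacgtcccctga
Glul (chr1:153899679-153899928, + strand): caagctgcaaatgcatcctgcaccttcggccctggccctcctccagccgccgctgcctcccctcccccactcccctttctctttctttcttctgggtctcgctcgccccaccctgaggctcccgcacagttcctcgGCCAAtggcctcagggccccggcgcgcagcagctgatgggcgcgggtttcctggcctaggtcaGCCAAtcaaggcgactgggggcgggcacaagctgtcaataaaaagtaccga
Aldoc (chr11:78322823-78322967, + strand): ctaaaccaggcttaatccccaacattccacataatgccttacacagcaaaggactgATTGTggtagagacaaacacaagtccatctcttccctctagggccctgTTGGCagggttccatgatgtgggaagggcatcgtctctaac

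Over the 9 windows of 250 bases used, from 8 members, ACAAT was present in 2, against 27.7% of 32851 windows of the same length before RefSeq starts. TTGGC was present in 4 of 9, against 41.5%. These shares are near the background, and the letters are no evidence of binding. The windows of both transporters had a GC content of 44.8%, and those of Glul and Aldoc had 64.8% and 55.2% over 250 bases. Neither of the tight pairs shared both motifs: Slc1a2 had TTGGC and Slc1a3 had ACAAT, while Glul and Aldoc both held TTGGC.

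The members also varied with the mitochondrial rRNA share. Of 30 relations computed (10 members with 3 library measures), 14 had an adjusted permutation p under 0.05, and 9 of these were negative relations with that share. The relations were not computed over all tested genes, so they are not shown to be particular to the members. Other markers also moved in control replicate 2, which had the highest share. Its summed neuron marker CPM (2242) was the lowest of all libraries and its summed blood gene CPM (1670) the highest. Glul had the tightest relation (r = -0.880, rho = -0.906, adjusted permutation p = 5e-05). Its r was -0.814 without control replicates 2 and 7, the libraries farthest from the median share, -0.946 within controls and -0.809 within deltamethrin libraries. Aldh1l1 (-0.864), Aldoc (-0.815), Gja1 (-0.814), Sox9 (-0.806), Slc1a3 (-0.723), Gfap (-0.670), Slc1a2 (-0.634) and Aqp4 (-0.556) also passed with their Pearson r. For these 8 genes rho lay between -0.854 and -0.636, and the adjusted permutation p of r, over the 30 relations, was between 5e-05 and 0.0033. S100b did not pass after TMM scaling, at r = -0.007 (rho = -0.090, permutation p = 0.972). With no scaling factors its r was -0.478 (adjusted permutation p = 0.0124) and 10 of 10 members passed. Unscaled values are divided by the total count, which includes the mitochondrial rRNA. A larger share then lowers every other gene, so a negative r was partly built in and this setting cannot decide the relation of S100b. Within the control group 7 of 10 passed, and within the deltamethrin group 9 of 10. With the log2 share as a covariate in the fit, Sox9 had a log2 difference of 0.22 with an edgeR unadjusted p of 0.00423, and 0 members passed after adjustment.

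**Figure D5:**
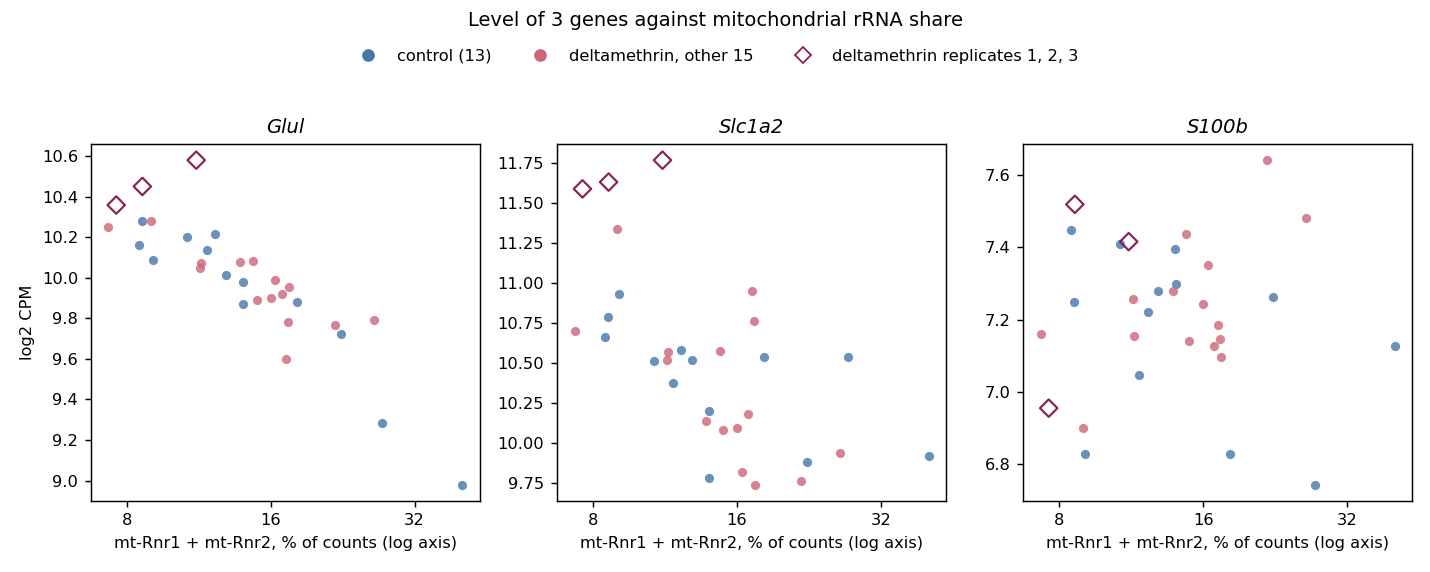
Level of Glul, Slc1a2 and S100b (log2 CPM) against the mitochondrial rRNA share of counts (percent, log axis) in the 31 libraries, coloured by group. Glul is lower where the share is higher (r = -0.880), Slc1a2 with more scatter (-0.634), and S100b shows no such relation after TMM scaling (-0.007).

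Regional makeup was measured through neuron markers of cerebellum and striatum. The mean log2 CPM of 9 cerebellar markers was related to 5 of 10 members with an adjusted permutation p under 0.05: Aqp4 (r = 0.542), Aldoc (0.528), Slc1a3 (0.496), Aldh1l1 (0.439) and Gja1 (0.432). Their rho lay between 0.459 and 0.608 and their adjusted permutation p between 0.0072 and 0.037. Within either group 1 of 10 relations passed. In controls it was that of Gfap (r = 0.650, adjusted permutation p = 0.0455), which is not among these 5 and had r = -0.099 within deltamethrin libraries. In deltamethrin libraries it was that of Slc1a3 (r = 0.563, adjusted permutation p = 0.0456). The r of these 5 genes was 0.341 to 0.610 within controls and 0.407 to 0.563 within deltamethrin libraries, and 0.387 to 0.579 without control replicate 1 and deltamethrin replicate 14, the libraries farthest from the median. Without those 2 libraries Aqp4 (adjusted permutation p = 0.0582) and Aldh1l1 (0.0724) no longer passed and Glul did (0.0138), and with no scaling factors 10 of 10 passed. The summed CPM of the cerebellar markers ran from 93.0 to 641 in controls and from 132 to 835 in deltamethrin libraries. Striatal markers were related to none of the 10 (r from -0.360 to -0.023).

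Over all tested genes, those most like each member (by r of log2 CPM centred within each group, over 31 libraries) were the following, with no test. Slc1a2 was followed most closely by Map2 (0.972), Ptprz1 (0.965) and Sesn3 (0.961), where Map2 is a neuronal microtubule protein. Glul was most like Chd3 (0.970), Pdxk (0.966) and Ptpn11 (0.966), and Aldoc most like Csdc2 (0.957), Plekho2 (0.956) and Mapk8ip2 (0.947). Aldh1l1 was most like Pygm (0.937), the glycogen phosphorylase of muscle and astrocytes, and Pdxk (0.922) and Sparcl1 (0.915). Gja1 was most like Scd1 (0.959), Plpp3 (0.942) and the potassium channel Kcnj10 (0.934), and Slc1a3 most like Amot (0.942), Paqr8 (0.938) and Ntrk2 (0.929). Sox9 was most like Ncan (0.936), Scd2 (0.931) and Ston2 (0.928), and Aqp4 most like Megf10 (0.90), an unnamed gene with the identifier ENSMUSG00000099597 (0.899), and Ednrb (0.890).

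S100b and Gfap had the fewest close matches. S100b was most like Bcas1 (0.849), Plekhb1 (0.831) and Mbp (0.783), of which Mbp is a myelin protein and Bcas1 an oligodendrocyte gene. Gfap was most like Cbs (0.807), Jun (0.783) and Ddr1 (0.783). Only 2 other genes had an r above 0.8 with S100b and only 1 with Gfap, against 1283 of 19528 (6.57%) with Glul and 812 with Slc1a2.

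Other astrocyte and pathway genes were described by 7 lists, and no gene of these lists had an adjusted p under 0.05 in edgeR. Of 30 other astrocyte genes, 25 had estimates above 0 with a median of 0.10, beside 50.5% of all genes. The genes of this list with the smallest p were the potassium channel Kcnj16 (0.32, SE 0.15), F3 (0.10, SE 0.05) and Ndrg2 (0.14, SE 0.08). Of 22 genes of glutamate and glutamine handling 19 had estimates above 0 (median 0.06), and those with an unadjusted p under 0.05 were Gls2, a glutaminase, at -0.15 (SE 0.07, edgeR adjusted p = 0.813) and Gad2, a GABA-synthesising enzyme, at 0.23 (SE 0.11, edgeR adjusted p = 0.813). The vesicular transporter Slc17a6 had 0.29 (SE 0.15). Of 12 endfoot and dystrophin-complex genes 8 were above 0 and none had an unadjusted p under 0.05 in edgeR, with Dtnb at -0.37 (SE 0.19), Lama2 at 0.19 (SE 0.11) and Kcnj10 at 0.28 (SE 0.19).

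Among 14 astrocyte transcription factor genes, 3 had a negative estimate and an unadjusted p under 0.05: Id1 at -0.36 (SE 0.14), Id3 at -0.28 (SE 0.12) and Hes1 at -0.21 (SE 0.09), which encode helix-loop-helix proteins that repress or inhibit other factors. Over all genes 2.37% lay on that side. Sox2, a factor of neural progenitors, was the 1 gene of the list higher at that p, where 2.0% of all genes lay. For Id1, Id3, Hes1 and Sox2 the edgeR adjusted p was 0.813. Of the 14 genes 9 had estimates above 0 and 5 below, with a median of 0.05. Of 38 reactive astrocyte genes 31 were tested, and the median was 0.04. Ggta1 (0.21, SE 0.09) and B3gnt5 (0.27, SE 0.13) had unadjusted p under 0.05, and Fkbp5 stood at -0.11 (SE 0.06). Of 10 radial and Bergmann glia genes all 10 were above 0 with a median of 0.11, led by Timp4 (0.17, SE 0.07), Ptprz1 (0.31, SE 0.15) and Fabp7 (0.16, SE 0.11). Among 9 connexin and aldolase genes 5 were above 0, and Gjc3, an oligodendrocyte connexin, had 0.16 (SE 0.07) and Gjb2 had 0.21 (SE 0.11).

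Markers of other cell types were summarised in the same way. The median log2 difference was 0.05 for 8 neuron markers, -0.01 for 8 oligodendrocyte markers, 0.13 for 5 oligodendrocyte precursor markers, -0.06 for 8 microglia markers and 0.11 for 8 endothelial markers. It was 0.27 for 9 cerebellar markers (9 of 9 above 0) and -0.16 for 10 striatal markers (10 of 10 below 0). For 8 cortical neuron markers it was -0.04, with 3 above and 5 below 0. For 9 choroid plexus markers it was -0.25, for 6 ependyma markers -0.19 (6 of 6 below 0) and for 5 blood genes -0.29. At an unadjusted p under 0.05 in edgeR, 3 choroid plexus markers (Ttr, Folr1 and Kcne2) were lower, beside 2.37% of all genes. So were 1 microglia and 1 striatal marker, and 1 endothelial marker was higher, beside 2.0% of all genes on that side. Summed choroid plexus CPM ran from 271.4 to 1318 in controls and from 251.7 to 733.4 in deltamethrin libraries, and summed striatal CPM from 724.6 to 1340 and from 570.1 to 1379. Summed oligodendrocyte CPM ran from 4162 to 6189 and from 4388 to 6947. The groups overlapped in each of these sums. None of these markers passed after adjustment in edgeR, their part in the members' differences was not tested, and no marker was at 0 in all libraries.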

How the data were processed

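The authors deposited 1 table of raw read counts per gene for 31 libraries (unit: counts). Per the submitters' processing notes, Trimmomatic, HISAT2, SAMtools, MultiQC and GRCm38 were used. Versions, the counting tool, the annotation and the use of strand are not given in the sources used here. Columns were matched to samples by title, and groups came from the labelled agent, which the table's own class row splits in the same way. No library pair differed only by sampling noise (smallest chi-square per degree of freedom 6.20 over 465 pairs).

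Genes were kept by filterByExpr (minimum count 10, minimum total 15), scaled by TMM and tested with edgeR 4.0.16 (robust quasi-likelihood F-test, Benjamini-Hochberg over 19529 genes) in R 4.3.3. log2 CPM used a prior count of 2. Correlations used 100000 permutations (scipy 1.17.1). Gene positions, identifiers and exon lengths came from GENCODE M21 (GRCm38). Scripts were tested on simulated data.

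Named genes were the 10 members, up to 3 genes with the smallest p per pathway list and the 3 most alike genes per member; a gene that this rule selects is not reported here. The members and lists were chosen with earlier results of these data known. Alternatives were RLE, upper quartile or no scaling factors, other count filters, DESeq2 1.42.0, limma 3.58.1 voom, non-robust dispersion, mitochondrial, cerebellar and cortical covariates, scaling without mitochondrial rRNA, and leaving out each library.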

Additional observations from a re-analysis of the deposited data

How the results depend on the processing

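No gene and no member had an adjusted p under 0.05 under any alternative run, the 31 fits that each left out 1 library included. The number of members with an unadjusted p under 0.05 (1 in the reported fit) was 0 with no scaling factors, with the cerebellar covariate, with limma voom and without deltamethrin replicates 1, 2 and 3 (chosen after seeing the data), and 2 with the count filter dropped, with upper quartile factors and with the mitochondrial rRNA or cortical covariate. It ran from 0 to 3 when 1 library was left out. It was 0 without control replicate 1, 2, 7, 10, 11 or 13 or deltamethrin replicate 1, 2, 3, 11 or 15, and 3 without control replicate 5 or deltamethrin replicate 14. The number of genes with an unadjusted p under 0.05 was 853 of 19529 in the reported fit. Of the same 19529 it was 1796 with the mitochondrial, 1938 with the cortical and 670 with the cerebellar covariate. It was 713 of 19529 with no scaling factors, 843 with upper quartile factors and 843 with limma voom. More genes were tested with no count filter (1948 of 38214) and with DESeq2 (1360 of 38214), so those numbers do not compare directly with 853. Without deltamethrin replicates 1, 2 and 3 it was 321 of 19242. With 1 library left out it ran from 526 (without control replicate 10) to 1389 (without deltamethrin replicate 9). Relations of members to library measures that passed numbered 14. They numbered 20 with no scaling factors, where the mitochondrial rRNA is part of the total each value is divided by. Within controls alone, where there are fewer libraries, they numbered 8. Aldh1l1 changed sign to -0.0213 with the cerebellar covariate and to -0.0321 without deltamethrin replicates 1, 2 and 3, and lay between -0.0247 (without control replicate 2) and 0.0651 with 1 library left out. Slc1a2 changed sign to -0.0137 without those 3 deltamethrin libraries, and r of Slc1a2 with S100b to 0.219 with no scaling factors. The cause was not tested. The members' median lay between 0.0823 and 0.1671 with 1 library left out. No paired analysis was possible because numbers in accession order only name libraries and link none across the groups.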

Other observations

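Slc1a2 was not alone among astrocyte membrane genes in its wide spread between libraries. Chosen after their values were seen, the potassium channel Kcnj10 had a biological coefficient of variation of 36.7%, the sodium pump subunit Atp1b2 had 35.6%, and the GABA transporter Slc6a11 had 34.3%, beside 36.7% for Slc1a2 and a median of 18.3% over all genes. The dystrophin-complex gene Dtnb had 37.1%, with 233 ± 142 CPM in controls (SD, n = 13) and 180 ± 61.6 in deltamethrin libraries (SD, n = 18).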
